A study of Mus musculus with 18 samples.

Results

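The colon of mice given a fermented green tea was compared with the colon of mice given saline, by sequencing of messenger RNA, in 1 of the 2 sets of libraries of a study on sleep, glutamatergic synapses and the gut microbiota. The 3 tea libraries (JHHCGC_7, JHHCGC_19 and JHHCGC_48) and the 3 saline libraries (NCC_2, NCC_8 and NCC_17) were taken by the treatment code and the letter C in their titles, and they make up 6 of the 18 libraries of the series. All came from ICR mice, an outbred laboratory strain, after 44 days of treatment: saline, or Jinhua Hecha tea given by gavage. Another treatment, a compound Suanzaoren (jujube kernel) capsule, gave 3 libraries to the same set (FFZRC_5, FFZRC_12 and FFZRC_24). These entered the fit for its estimate of spread, and so also took part in the scaling and in the filter on low counts. What the letter C stands for, how old the mice were, their sex and the hour of tissue collection are stated in none of the labels. Nothing ties a library to a mouse of its own, and 6 libraries per treatment over the 2 sets stand beside 3 mice per treatment in the study design, so all p-values measure the spread between libraries, which may be technical.

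The colon wall is built of an epithelium of absorptive colonocytes and mucus-secreting goblet cells, of immune cells beneath it, and of smooth muscle with its own nervous system. Its cells carry a circadian clock, in which the activators Clock, Npas2 and Arntl (Bmal1) switch on the Period, Cryptochrome and Rev-erb (Nr1d1, Nr1d2) repressors and output factors such as Dbp and Tef, and the repressors in turn silence the activators. RNA of a dissected piece of gut is a mixture of these cells, and in such bulk RNA fewer cells of a type and less RNA per cell cannot be told apart.

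Depth was 59206980 to 68405670 counts in the 6 libraries. Colon markers were high in all of them: Epcam, an adhesion protein of epithelia, stood at 1676, 1354 and 2135 CPM in saline and at 1953, 2204 and 2464 CPM in tea, where CPM is the count scaled to library size with TMM factors (edgeR's cpm), and values follow the order of the library names above. Of 4 stomach genes in the table, 4 had no count in any tea library. NCC_17 and JHHCGC_48 stood apart from the other libraries of their groups in that mitochondrially encoded transcripts took 14.84% and 13.01% of their counts, against 5.678% to 8.566% in the other 4. Muc2, the main goblet cell mucin, was also lowest in these 2, at 177 and 341 CPM against 705 to 1639 CPM. Chi-square per degree of freedom between libraries of a group was 186.3 to 719.6, so no library was a second copy of another.

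The comparison asked which genes differ in the colon after tea. No gene of 20964 tested passed an adjusted p of 0.05 in edgeR's quasi-likelihood test with Benjamini-Hochberg adjustment (0%). An unadjusted p under 0.05 was reached by 177 genes higher in tea (0.844%) and by 491 genes lower in tea (2.34%). The 3 tea libraries lay above all 3 saline libraries for 805 genes (3.84%) and below them for 1497 genes (7.14%), while 51.5% of all fold changes were positive. Of the 50 genes with the smallest p, 49 were lower in tea, and 24 of the 50 belonged to lists of cartilage, bone, inner ear, muscle, fat, skin, lung or imprinted growth genes. These lists were written with earlier results of these data known, so that count carries no weight of its own. Other tests on the same libraries made calls, again mostly of lower genes: DESeq2 called 159 (11 higher, the others lower), limma-voom 43 (all lower), limma on log2(FPKM + 0.1) 108 (1 higher), and edgeR on the 6 tea and saline libraries alone 13 (1 higher, 12 lower).

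**Figure D1:**
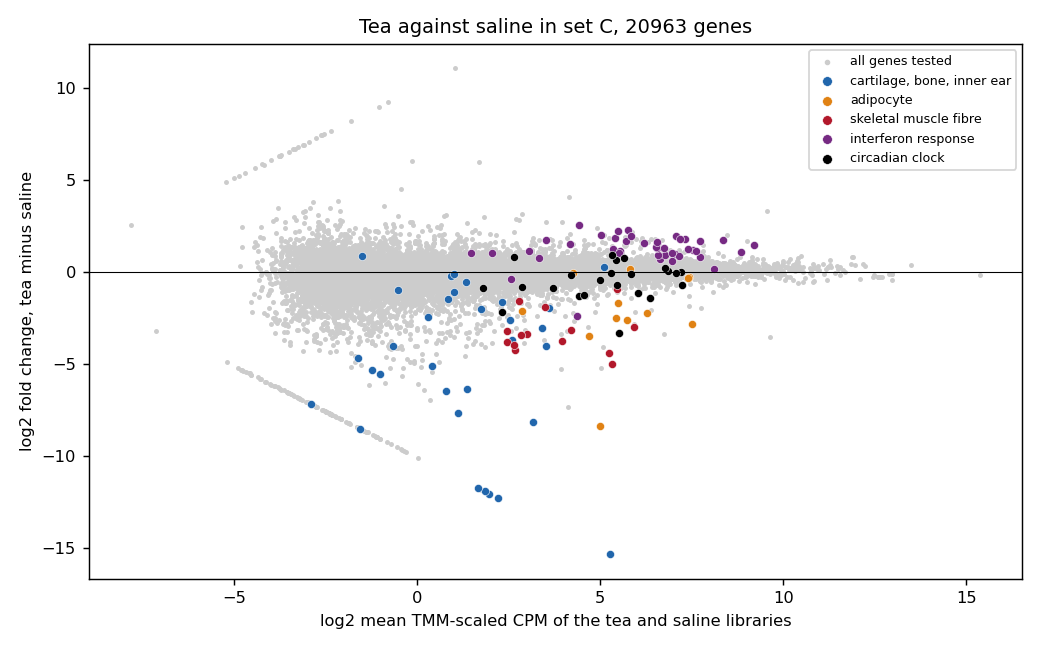
Fold change of tea over saline (log2) against the mean level of the 6 libraries (log2 CPM) for 20963 tested genes with a count in them, with gene lists in colour. Genes of cartilage, bone and inner ear, of skeletal muscle and of fat lie mostly below 0, interferon genes mostly above it, and the 2 slanted lines are genes at 0 in 1 of the groups.

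Several transcripts of cartilage, bone and the inner ear were present in every saline library and had no count in tea. Col2a1, the main collagen of cartilage (ENSMUSG00000022483, GRCm38 chromosome 15, 97975602 to 98004695), stood at 73.8, 70.6 and 87.8 CPM in saline and had no count in any tea library. Against a floor of 3 counts per library, it was at least 1682-fold lower in tea (edgeR's quasi-likelihood test, Benjamini-Hochberg adjusted p = 0.161). The levels of Col2a1 were known when this comparison was chosen, and it passed the filter on low counts through saline alone. Its p-value therefore supports nothing by itself. The groups were fully separate, and the same was true of aggrecan, the large cartilage proteoglycan.

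Aggrecan, Acan, stood at 6.76, 6.56 and 10.1 CPM in saline with no count in tea, at least 169-fold lower. Matn1, matrilin of cartilage matrix, stood at 5.85, 6.72 and 6.43 CPM and at 0, at least 137-fold lower. Col10a1, the collagen of hypertrophic cartilage, stood at 7.26, 6.19 and 8.11 CPM and at 0, at least 156-fold lower. Col9a1, a collagen that coats the Col2a1 fibril, was not wholly absent from tea, at 0.0532, 0.130 and 0 CPM against 16.95, 16.5 and 20.4 CPM. Col11a2, another fibril collagen, had the smallest p of all genes: it stood at 16.97, 20.6 and 19.1 CPM in saline and at 2.76, 2.16 and 2.14 CPM in tea, a log2 fold change of -3.00 ± 0.30 (standard error; edgeR's quasi-likelihood test, Benjamini-Hochberg adjusted p = 0.0623).

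Bone and inner ear genes followed the same split. Ibsp, a sialoprotein of mineralizing bone, held 4.37, 4.24 and 4.19 CPM in saline, a coefficient of variation of 2.16%, and at most 0.0576 CPM in tea. Oc90, a matrix protein of the otoconia of the inner ear, held 8.63, 8.26 and 10.8 CPM in saline and none in tea, at least 200-fold lower (edgeR's quasi-likelihood test, Benjamini-Hochberg adjusted p = 0.0867). Oc90 also passed the filter on low counts through saline alone, so its p-value supports nothing by itself. Tecta, a tectorial membrane protein, held 3.19, 3.59 and 3.44 CPM against 0.106, 0 and 0 CPM.

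Counted over all members in the table, tested or not, tea lay below saline without overlap for 13 of 16 cartilage genes, 8 of 10 bone and tooth genes and 7 of 8 inner ear genes, beside 7.14% of all genes tested. A fold change of these lists describes genes that passed the filter on low counts through saline alone and supports nothing by itself: the cartilage median was -4.01, and -3.81 with the genes absent from tea set at their bound. The inner ear median was -5.08 (-4.31 with such genes at their bound, and -8.065 without JHHCGC_7). The cartilage members that did not separate were Sox9, which the crypt epithelium also expresses (33.5, 42.4 and 16.5 CPM in saline; 53.4, 51.3 and 10.4 CPM in tea), Chad and the nearly silent Ucma.

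In all, 15 genes held at least 1 CPM in every saline library and less than 0.1 CPM in every tea library. The other way there was 1 gene, the predicted gene Gm49394. Besides Col2a1, Acan, Matn1, Col10a1, Ibsp and Oc90, these 15 included Panx3, a channel protein of bone and cartilage (at least 35-fold lower), Pou3f4, a homeobox factor of the developing ear (at least 33-fold lower), Tbx18, a T-box factor of mesenchyme, Myh8, the perinatal muscle myosin, and Sprr1b of cornified skin (at least 44-fold lower). The median coefficient of variation of the 15 within saline was 14.8%, where counting error alone gives 7.89%, and the median over 12491 genes in the same range of level was 19.3%. A minimum of 1 CPM in every saline library chose the 15, which favours steady genes. Hpx, the plasma haem carrier hemopexin, varied widely among them, at 6.60, 1.77 and 11.8 CPM in saline and 0 in tea, and capsule libraries held 0.136, 1.65 and 23.6 CPM. Of the 15, 12 were also under 0.1 CPM in every capsule library of the set. In the other set, 14 of the 15 were present at 1 CPM in 1 saline library (NCX_124) and 14 in 1 capsule library (FFZRX_139), none in the other 2 saline libraries, and none in any tea library.

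**Figure D2:**
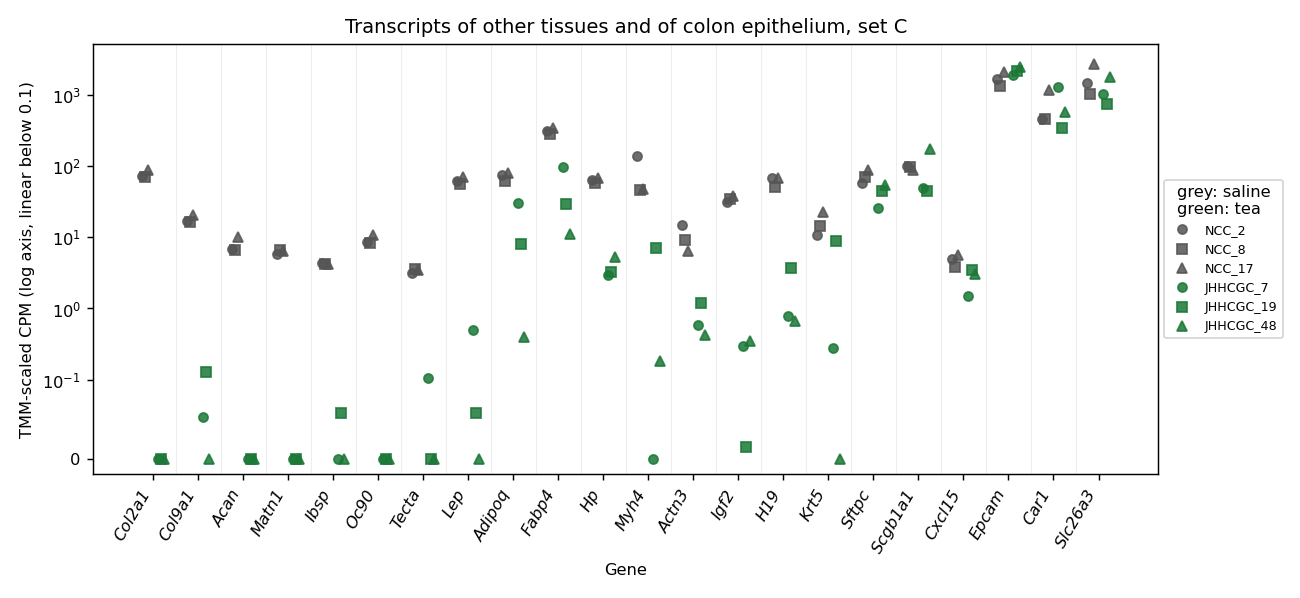
TMM-scaled CPM (log axis, linear below 0.1) of genes of cartilage, bone, ear, fat, muscle, growth, skin, lung and colon epithelium in the 3 saline (grey) and 3 tea (green) libraries. Cartilage and ear genes sit at or near 0 in tea, fat and muscle genes spread widely within tea, and the lung and epithelial genes overlap or lie close.

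Skeletal muscle transcripts stood lower in tea, though not at 0 in every tea library. Actn3, the actinin of fast fibres, stood at 14.9, 9.18 and 6.50 CPM in saline and at 0.585, 1.21 and 0.421 CPM in tea, a log2 fold change of -3.78 ± 0.57. Myh4, the fastest myosin heavy chain, stood at 138.7, 46.9 and 47.7 CPM in saline and at 0, 7.08 and 0.183 CPM in tea. The highest saline library was NCC_2 and the highest tea library JHHCGC_19, a pattern repeated by Tnnt3, the fast troponin T (49.5, 18.1 and 19.1 CPM against 0.492, 5.26 and 0.677 CPM). Acta1, skeletal actin, stayed measurable in tea, at 4.33, 26.1 and 11.3 CPM against 176, 64.5 and 80.3 CPM.

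Of 14 skeletal muscle genes all 14 had a negative fold change, median -3.37, and 12 separated without overlap (7.14% of all genes tested). The 2 that overlapped were Myh2 and Ckm, the muscle creatine kinase, which stood at 56.1 CPM in JHHCGC_48 against 38.1 to 79.2 CPM in saline. Summed over the 14 genes, saline libraries held 784.3, 295.6 and 343.1 CPM and tea libraries 35.34, 100.7 and 74.68 CPM. Capsule libraries of the set were low as well, at 15.67, 14.69 and 60.62 CPM.

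Fat cell genes mostly stood lower in tea, to very different degrees. Lep, the hormone leptin, stood at 62.8, 56.5 and 71.3 CPM in saline and at 0.505, 0.0576 and 0 CPM in tea, a log2 fold change of -8.33 ± 1.70. Hp, haptoglobin, a plasma protein also made by fat, stood at 64.4, 59.0 and 68.2 CPM in saline and at 2.96, 3.30 and 5.36 CPM in tea, a log2 fold change of -4.04 ± 0.42 (edgeR's quasi-likelihood test, Benjamini-Hochberg adjusted p = 0.0623). Npr3, the receptor that clears natriuretic peptides, stood at 31.2, 25.7 and 32.2 CPM against 0.758, 0.547 and 1.01 CPM (-5.27 ± 0.63). All 3 separated without overlap. Capsule libraries of the set were low as well, at 0.354, 1.06 and 0.685 CPM of Hp and 1.12, 0.506 and 2.76 CPM of Npr3. Scaled over all 18 libraries, Lep stood at 0, 0 and 0.499 CPM in capsule libraries of this set. In the other set it stood at 57.2 CPM in the saline library NCX_124 and at 0 in NCX_134 and NCX_147. Hp and Npr3 were narrow within tea, while Lep ran from 0.505 CPM down to 0.

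Adipoq, adiponectin, instead ran through the tea libraries in steps, at 30.9, 7.96 and 0.402 CPM against 74.7, 62.2 and 79.8 CPM in saline. Retn, resistin, was ordered likewise, at 6.53, 1.67 and 0 CPM against 12.4, 9.77 and 13.0 CPM. Cfd, the fat protease adipsin, reached 123 CPM in JHHCGC_7, above every saline library (72.8, 35.01 and 50.4 CPM), and was at 1.4998 CPM in JHHCGC_48. Of 12 adipocyte genes 11 had negative fold changes, with a median of -2.14. An unadjusted p under 0.05 was reached by 5 (2.34% of all genes were lower at that level). Tea lay below saline without overlap for 8 (7.14% of all genes tested). Summed over the 12 genes, saline libraries held 1250, 1173 and 1306 CPM and tea libraries 762.6, 377.2 and 402.4 CPM. Capsule libraries of the set held 419.9, 393.4 and 505.6 CPM. Among 8 genes of lipid storage, Lpl, which releases fatty acids from lipoproteins, stood at 189, 180 and 218 CPM against 33.7, 14.9 and 8.98 CPM.

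Most keratinized epithelium genes and the imprinted growth genes also stood lower. Krt5, the basal keratin, stood at 10.6, 14.6 and 23.0 CPM in saline and at 0.279, 8.88 and 0 CPM in tea, so that JHHCGC_19 lay near saline. Its partner Krt14 overlapped, at 10.2, 15.1 and 14.8 CPM against 4.15, 13.3 and 0.384 CPM. Of 22 skin genes in the deposited table, 13 lay lower in tea without overlap (7.14% of all genes tested) and 1 higher (3.84%). Without JHHCGC_19 the median log2 fold change of the tested members went from -2.02 to -3.26. The summed level of the 22 genes overlapped instead. It was 7149, 1974 and 5553 CPM in saline and 4655, 9804 and 6597 CPM in tea.

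Igf2, the fetal growth factor, stood at 31.8, 34.6 and 37.8 CPM in saline and at 0.292, 0.0144 and 0.347 CPM in tea. Its imprinted neighbour H19, a noncoding RNA, stood at 67.8, 51.6 and 69.4 CPM against 0.784, 3.76 and 0.658 CPM (-5.18 ± 0.83). The predicted gene Gm49394 (chromosome 7, 142650769 to 142669942) ran the other way, at 0 in all saline libraries and 4.53, 3.43 and 4.35 CPM in tea. Capsule libraries held 0, 4.48 and 3.25 CPM of Gm49394, and 3.39, 0.0123 and 0.288 CPM of Igf2 (Igf2 scaled over all 18 libraries). Whether reads of Igf2 were counted under Gm49394 was not tested. All 12 imprinted genes of the list had negative fold changes with a median of -1.13, and 7 separated without overlap (7.14% of all genes tested), while Ndn and Cdkn1c did not (0.84 and 0.679 as unadjusted p in edgeR's quasi-likelihood test). Summed over the 12 genes, saline libraries held 274.3, 248.2 and 357.4 CPM and tea libraries 101.9, 93.16 and 143.3 CPM. Capsule libraries of the set held 60.03, 49.05 and 203.6 CPM, also below saline.

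Transcripts of the lung, Sftpc and Scgb1a1 among them, were carried by every tea library. Sftpc, a surfactant protein of alveolar cells (ENSMUSG00000022097, chromosome 14, 70520949 to 70524081), stood at 57.9, 70.6 and 89.5 CPM in saline and at 26.3, 45.3 and 54.0 CPM in tea, a log2 fold change of -0.80 ± 0.31 with an unadjusted p of 0.0406 in edgeR's quasi-likelihood test. The levels of Sftpc were known when this comparison was chosen, so its p-value supports nothing by itself. All tea libraries lay below all saline libraries, and the fold was smaller than that of any cartilage gene named above as lower in tea. Scgb1a1, the secretoglobin of airway club cells, overlapped, at 102, 97.8 and 88.5 CPM against 50.3, 44.7 and 173 CPM. The capsule libraries of the set held no count of either gene.

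The surfactant gene Sftpb separated as well, at 12.7, 11.1 and 14.1 CPM against 4.37, 7.13 and 8.61 CPM. Sftpa1 overlapped, at 12.5, 7.29 and 14.4 CPM against 3.18, 7.13 and 8.07 CPM. Bpifa1, an airway secretory protein, stood at 0.279, 0.499 and 0.419 CPM in saline and 0 in tea, at least 8-fold lower. Of 15 lung genes in the deposited table, 5 lay lower in tea without overlap (7.14% of all genes tested). The median of the 14 tested was -0.59 (-0.924 without JHHCGC_48), 3 of them were positive, and Scgb1a1 was near 0 (-0.10 ± 0.53). Col2a1 and Sftpc thus parted company within the tea group: saline libraries carried both, tea libraries carried Sftpc alone, and capsule libraries carried at most 0.286 CPM of Col2a1. The split was not particular to tea. In the other set (scaled over all 18 libraries), the capsule libraries FFZRX_238 and FFZRX_268 held 46.2 and 54.4 CPM of Sftpc and no Col2a1. NCX_124 and FFZRX_139 carried both genes, and NCX_134 and NCX_147 neither. The tea libraries of that set held 41.8, 0 and 0 CPM of Sftpc and no Col2a1. In the set described here these transcripts coincided with treatment, so their source and the treatment cannot be told apart.

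Several clock outputs and repressors stood lower in tea. Among them Dbp, Per2, Per3 and Nr1d1 separated without overlap, while Tef and Nr1d2 overlapped through NCC_2, and other clock genes overlapped too. Of 23 clock genes tested 16 had negative fold changes, with a median of -0.43 against 0.0137 over all genes. An unadjusted p under 0.05 was reached by 9, all lower in tea (2.34% of all genes were lower at that level), and 5 lay below saline without overlap (7.14%). None was called after adjustment over all genes by edgeR, and DESeq2 called Dbp alone among them.

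To show what these genes carry at their starts, 300 bases of promoter (250 before and 50 after the start) are given for 4 of the genes whose levels follow. They are RefSeq sequences of GRCm38.p6, in which 3 motifs of clock factors were searched on both strands: the E-box CACGTG bound by Clock and Arntl, the D-box TTANGTAA bound by Dbp and Tef, and the Rev-erb element, AANTN followed directly by GGTCA, bound by Rev-erb and ROR receptors. Capitals mark the matches. The windows shown are Tef at chr15:81802423-81802722 (plus strand), Per3 at chr4:151044616-151044915 (minus strand), Ciart at chr3:95882179-95882478 (minus strand) and Arntl at chr7:113207261-113207560 (plus strand).
Tef: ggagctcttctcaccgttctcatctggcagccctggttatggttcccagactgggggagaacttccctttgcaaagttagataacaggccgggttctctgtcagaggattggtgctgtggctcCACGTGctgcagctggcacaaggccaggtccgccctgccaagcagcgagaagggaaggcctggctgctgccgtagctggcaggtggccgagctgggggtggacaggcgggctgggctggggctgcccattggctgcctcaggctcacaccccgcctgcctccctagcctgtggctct
Per3: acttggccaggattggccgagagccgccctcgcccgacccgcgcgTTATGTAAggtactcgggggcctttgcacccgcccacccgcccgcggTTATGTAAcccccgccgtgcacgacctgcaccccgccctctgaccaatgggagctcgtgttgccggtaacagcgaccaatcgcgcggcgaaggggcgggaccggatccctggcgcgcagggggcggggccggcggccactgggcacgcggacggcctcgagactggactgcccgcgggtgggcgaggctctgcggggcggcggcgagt
Ciart: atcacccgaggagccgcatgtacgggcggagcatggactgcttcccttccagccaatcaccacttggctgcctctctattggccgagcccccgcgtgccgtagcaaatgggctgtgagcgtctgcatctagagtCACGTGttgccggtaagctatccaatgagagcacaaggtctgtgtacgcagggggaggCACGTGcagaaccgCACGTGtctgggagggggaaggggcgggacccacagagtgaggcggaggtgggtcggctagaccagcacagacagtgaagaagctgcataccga
Arntl: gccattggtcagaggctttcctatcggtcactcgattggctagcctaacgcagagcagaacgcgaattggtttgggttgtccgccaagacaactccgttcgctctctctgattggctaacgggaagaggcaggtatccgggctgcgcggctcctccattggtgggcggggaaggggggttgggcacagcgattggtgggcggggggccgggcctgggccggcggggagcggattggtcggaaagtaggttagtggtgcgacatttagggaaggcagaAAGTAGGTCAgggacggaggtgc
Tef held 1 E-box, Per3 held 2 D-boxes, Ciart held 3 E-boxes and Arntl held 1 Rev-erb element. Of all 32851 promoters in the table, 7.15% held the E-box, 2.32% the D-box and 0.606% the Rev-erb element. The promoters of 17 clock genes were found there, in 22 windows, and 5 genes held an E-box in any window, 1 a D-box and 1 the Rev-erb element. These count genes, while the percentages count single promoters, so they are not like for like. The 4 windows shown all hold a match. The other window of Arntl and the windows of Dbp, Nr1d1, Nr1d2, Npas2, Nfil3 and Clock held none of the 3. A match describes the letters and says nothing of binding in these samples.

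Dbp, an output factor that acts on D-boxes, stood at 18.4, 186 and 42.3 CPM in saline and at 10.1, 7.99 and 6.93 CPM in tea. The tea libraries were close together and below all saline libraries, while saline itself spanned a wide range with NCC_8 at the top. The log2 fold change was -3.30 ± 0.74 (unadjusted p = 0.00179; edgeR's quasi-likelihood test, Benjamini-Hochberg adjusted p = 0.567), and it was -1.86 without NCC_8. With DESeq2 the adjusted p was 0.000629; over the other alternatives it was 0.259 to 1.

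Tef, a relative of Dbp, stood at 48.7, 171 and 135 CPM in saline and at 38.9, 33.5 and 62.2 CPM in tea. Here NCC_2 lay inside the range of tea, and the log2 fold change was -1.40 ± 0.43. Hlf, the remaining member of that family, overlapped widely, at 7.26, 21.4 and 21.7 CPM against 4.81, 3.35 and 19.6 CPM.

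Among the repressors, Per3 stood at 16.2, 37.1 and 36.9 CPM in saline and at 14.0, 8.22 and 14.8 CPM in tea (-1.29 ± 0.36), without overlap. Per2 separated as well, by less, at 44.8, 54.0 and 61.3 CPM against 27.0, 42.9 and 31.2 CPM (-0.66 ± 0.23). Per1 did not separate (23.0, 48.6 and 38.6 CPM against 26.8, 29.6 and 25.2 CPM). Nr1d1, Rev-erb alpha, stood at 188, 218 and 150 CPM against 146.7, 105 and 94.9 CPM (-0.68 ± 0.25).

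Nr1d2, Rev-erb beta, stood at 49.7, 105 and 112 CPM in saline and at 34.96, 32.5 and 54.0 CPM in tea (-1.14 ± 0.32). Ciart, a repressor that is itself a clock target, stood at 1.62, 15.0 and 7.87 CPM against 1.06, 1.09 and 3.33 CPM (-2.16 ± 0.77). In both, NCC_2 lay inside the range of tea. Without NCC_8 the fold change of Ciart was -1.37.

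The activators Arntl and Npas2 had positive fold changes and overlapped. Arntl stood at 52.4, 8.93 and 21.7 CPM in saline and at 39.0, 43.9 and 74.9 CPM in tea (0.92 ± 0.62). Npas2 stood at 66.4, 9.58 and 25.1 CPM against 43.9, 53.6 and 61.2 CPM (0.65 ± 0.62). In both, NCC_2 was as high as the tea libraries and NCC_8 the lowest of the 6. Without NCC_2 their log2 fold changes were 1.78 and 1.61.

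Nfil3, which opposes Dbp at D-boxes, followed the activators, at 9.19, 1.74 and 2.44 CPM against 5.33, 9.78 and 8.80 CPM. Clock itself was flat, at 68.0, 56.1 and 51.3 CPM against 59.1, 54.3 and 51.9 CPM, and Cry1 and Cry2 overlapped (0.80 ± 0.87 and -0.04 ± 0.35). NCC_2 lay inside the range of the tea libraries for Arntl, Nfil3, Tef, Nr1d2, Ciart and Hlf, above all of them for Npas2 and below all of them for Per1. It cleared tea on the side of its own group for Dbp, Per2, Per3 and Nr1d1, by little for Per3 (16.2 CPM beside 14.8 CPM in JHHCGC_48). The median of the list was -0.67 without NCC_2 and -0.177 without NCC_8, and the members at an unadjusted p under 0.05 numbered 12 and 5. Over all genes 509 of 21815 and 531 of 21768 were at that level in those fits.

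**Figure D3:**
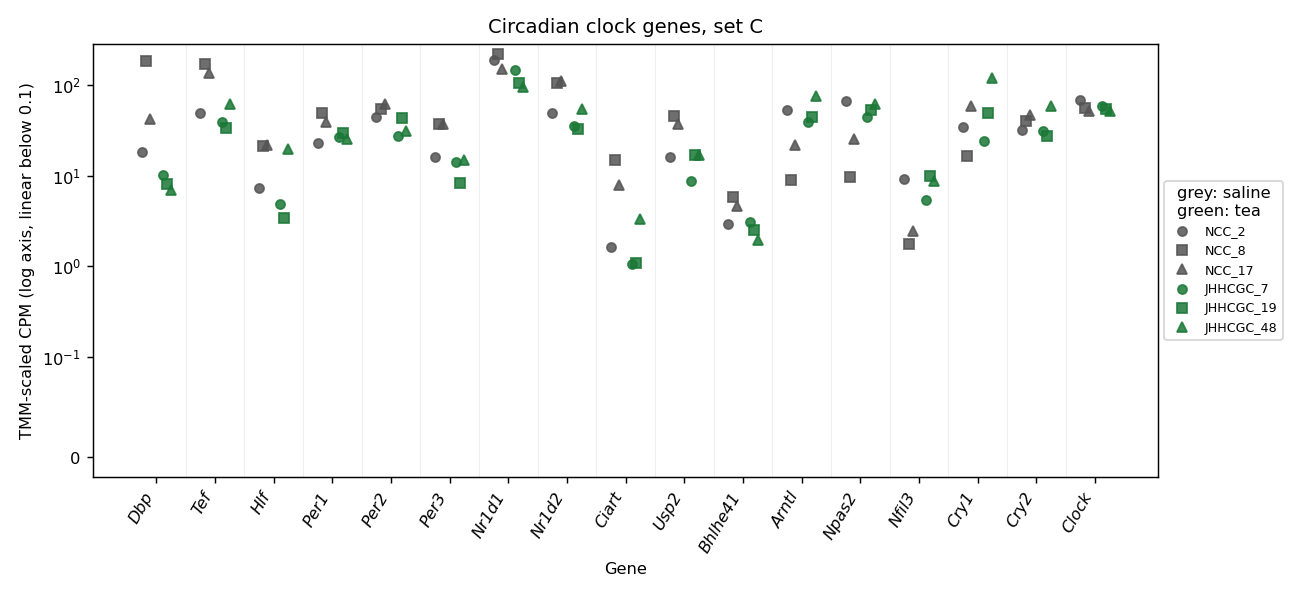
TMM-scaled CPM (log axis, linear below 0.1) of 17 clock genes in the 3 saline (grey) and 3 tea (green) libraries. Dbp, Per2, Per3 and Nr1d1 separate with tea below saline, and for Tef, Ciart and Arntl the grey circle of NCC_2 lies among the tea libraries.

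Interferon response genes had mostly positive fold changes that rested most on 1 of the 3 tea libraries, JHHCGC_48. Of 43 tested 41 were positive with a median of 1.26, but 1 reached an unadjusted p under 0.05 higher in tea (0.844% of all genes) and 3 lay above saline without overlap (3.84%). Psmb10, a subunit of the immunoproteasome, was that gene, at 94.8, 98.1 and 102 CPM in saline and at 141, 202 and 210 CPM in tea, a log2 fold change of 0.91 ± 0.26 (edgeR's quasi-likelihood test, Benjamini-Hochberg adjusted p = 0.841). Tap1, the peptide transporter for antigen presentation, overlapped, at 44.3, 39.0 and 57.9 CPM against 39.1, 175 and 202 CPM.

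Antiviral effectors differed most between tea libraries. Oas2, which makes the activator of RNase L, stood at 11.7, 16.7 and 133.5 CPM in saline and at 4.49, 86.9 and 558 CPM in tea. Isg15, a ubiquitin-like modifier, stood at 15.8, 52.5 and 122 CPM against 19.8, 123 and 537 CPM. JHHCGC_7 lay below all saline libraries for Oas2 and among them for Isg15, JHHCGC_48 was highest for both, and within saline NCC_17 was highest for both. Ifit2, an RNA-binding antiviral protein, went against the list, at 13.7, 22.7 and 66.4 CPM in saline and 6.71, 0.792 and 12.5 CPM in tea, without overlap.

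Scored per library as the median over members relative to the gene's mean over the 6 libraries (log2), the list stood at -0.61, -0.84 and 0.34 in saline and at -1.15, 0.70 and 1.81 in tea. JHHCGC_7 therefore lay below all saline libraries. Without JHHCGC_48 the median fold change of the list was 0.258, and without JHHCGC_19 it was 1.42. Members at an unadjusted p under 0.05 in either direction numbered 13 without JHHCGC_7, 7 without FFZRC_24, 5 without FFZRC_5, 2 without FFZRC_12 or JHHCGC_48, and 7 with DESeq2 or on the 6 tea and saline libraries alone. Over all genes the number was 860 of 21761 without JHHCGC_7, 1106 of 21836 without FFZRC_24 and 656 of 21716 without FFZRC_5. It was 650 of 21710 without FFZRC_12 and 1053 of 21868 without JHHCGC_48. With DESeq2 it was 1029 of 20964, and on the 6 libraries alone 830 of 20096. The highest library of each group, NCC_17 and JHHCGC_48, is also the one with the high mitochondrial share. With the share as a covariate in edgeR's fit the median was 1.55 and 34 of 43 members were at an unadjusted p under 0.05. Over all genes the covariate also raised that number, from 668 to 2094 of 20964.

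Lymphocyte genes had positive fold changes with wide overlap. All 21 T cell genes were positive, median 1.33, and 1 reached an unadjusted p under 0.05 (0.844% of all genes were higher at that level). It was Cd8b1, a chain of the killer T cell coreceptor, at 0.0882, 0.414 and 0.164 CPM in saline and 0.611, 3.69 and 0.238 CPM in tea. Cd3e, of the T cell receptor complex, stood at 3.03, 3.08 and 1.02 CPM against 5.54, 15.3 and 2.58 CPM. JHHCGC_19 was highest for both, and without it the median of the list was 0.556 (0.612 with the mitochondrial share as a covariate).

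All 15 B cell and follicle genes were positive too, median 0.84, with none at an unadjusted p under 0.05. The summed level of the 15 genes was 72.6 to 276.7 CPM in saline and 24.03 to 670.9 CPM in tea, so that tea held both the highest and the lowest library. The median reversed to -0.255 without JHHCGC_19 and to -0.323 with the mitochondrial share as a covariate, and was 1.39 without JHHCGC_48, 1.357 without NCC_8 and 0.498 without NCC_17. Genes of MHC class II presentation had a median of 0.09, with 6 of 11 positive, and it reversed to -0.616 without JHHCGC_19 and to -0.174 without NCC_17.

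**Figure D4:**
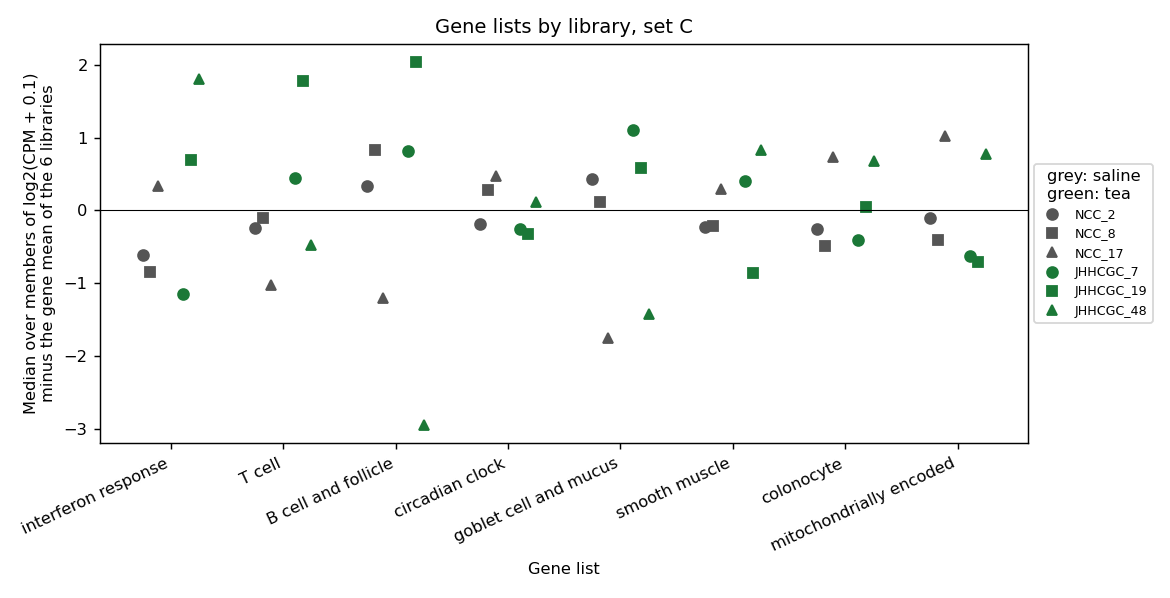
Median over the members of 8 gene lists of log2(CPM + 0.1) minus the gene's mean over the 6 libraries, for each saline (grey) and tea (green) library. The groups overlap in every list shown, and NCC_17 and JHHCGC_48 (triangles) are the lowest libraries of their groups for B cell and goblet genes and the highest for colonocyte and mitochondrially encoded genes.

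Fewer genes separated with tea higher than with tea lower. Sprr2b, a small proline-rich protein of stressed epithelia, had the smallest p of the genes higher in tea, at 2.63, 0.927 and 2.37 CPM in saline and at 12.3, 66.2 and 22.6 CPM in tea, a log2 fold change of 4.09 ± 0.84 (edgeR's quasi-likelihood test, Benjamini-Hochberg adjusted p = 0.455). The groups did not overlap, and the capsule libraries lay with tea (9.72, 13.7 and 42.9 CPM). Its close relatives Sprr2a1 and Sprr2a3 overlapped, and Sprr2d ran the other way with 0 in all tea libraries; the labels and file headers do not say how reads shared between these near copies were counted.

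Tgm4, a prostate transglutaminase, stood at 0.588, 0.157 and 0.328 CPM in saline and at 3.72, 4.46 and 0.732 CPM in tea (3.05 ± 0.79). Tnfsf9, the ligand that costimulates T cells through 4-1BB, stood at 0.559, 0.385 and 0.510 CPM against 1.196, 1.91 and 1.61 CPM (1.70 ± 0.47). Fanca, of the DNA crosslink repair complex, stood at 3.00, 4.19 and 2.84 CPM against 5.33, 9.09 and 6.97 CPM (1.09 ± 0.31). DESeq2 called these 3 and Sprr2b.

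Smaller differences with tight groups were those of Gpank1 (15.7, 17.6 and 15.9 CPM against 28.0, 27.5 and 34.7 CPM; 0.87 ± 0.22), Rfx1, a transcription factor (33.0, 27.8 and 28.1 CPM against 38.8, 49.9 and 49.5 CPM; 0.64 ± 0.17), and Cdc42ep5, an effector of the GTPase Cdc42 (150, 133 and 130 CPM against 185, 210 and 255.6 CPM; 0.65 ± 0.19). Hsh2d, an adaptor of lymphocyte signalling, stood at 1.97, 3.22 and 3.02 CPM against 3.99, 9.53 and 8.38 CPM (1.41 ± 0.41). Tmem74b had no count in saline and 0.160, 0.317 and 0.402 CPM in tea, at least 6-fold higher. None of these was called by edgeR (adjusted p of 0.710 to 0.859 in its quasi-likelihood test with Benjamini-Hochberg adjustment).

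Immediate early genes, which answer stimulation within minutes, were positive in 18 of 19, with a median of 0.38 (0.21 without NCC_8, 0.736 without NCC_17 and 0.233 without JHHCGC_19). Egr1 stood at 14.9, 10.995 and 31.2 CPM in saline and at 34.9, 46.0 and 35.4 CPM in tea (1.03 ± 0.35, unadjusted p = 0.0183 in edgeR's quasi-likelihood test), without overlap. Junb also separated, at 108, 117 and 144 CPM against 165, 210 and 147.6 CPM. Fos did not, at 218, 58.0 and 322 CPM against 205, 458 and 115 CPM, and Ier3 separated in the lower direction.

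The epithelium and muscle of the colon itself differed little beside the spread. Colonocyte genes had a median of 0.21 with 11 of 14 positive, goblet cell and mucus genes 0.24 with 9 of 13, tight junction genes 0.22 with 15 of 18, smooth muscle genes 0.31 with 11 of 12 and cell cycle genes 0.34 with 15 of 16. No member of these 5 lists reached an unadjusted p under 0.05 (3.19% of all genes, in either direction). The junction scaffold Tjp3 alone lay higher without overlap (3.84% of all genes tested), at 247, 186 and 239 CPM against 253, 280 and 348 CPM. The medians did not hold their sign. Goblet genes stood at -0.275 with the mitochondrial share as a covariate, -0.144 without NCC_17 and -0.27 without JHHCGC_7, and cell cycle genes at -0.362 with that covariate and -0.181 without JHHCGC_19. Colonocyte, smooth muscle and tight junction genes stood at -0.249, -0.017 and -0.003 without JHHCGC_48, and colonocyte and tight junction genes at -0.033 and -0.013 without NCC_8.

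Nuclear genes of oxidative phosphorylation had a median of 0.16 (0.066 without JHHCGC_7, 0.307 without JHHCGC_48), with 41 of 49 positive, and the 13 mitochondrially encoded genes one of -0.34, with all 13 negative. The latter reversed to 0.258 without NCC_17 and was -0.99 without JHHCGC_48. Cytosolic ribosomal protein genes had a median of 0.04 that took either sign when single libraries were left out (-0.227 without JHHCGC_7, 0.386 without NCC_8).

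Fibroblast genes stood lower by a modest amount, 12 of 14 negative with a median of -0.43 (-0.805 without JHHCGC_7, -0.184 without JHHCGC_48). Pdgfra, the growth factor receptor of stromal cells, stood at 33.2, 24.96 and 32.6 CPM against 24.3, 16.4 and 18.1 CPM (-0.63 ± 0.20, unadjusted p = 0.014 in edgeR's quasi-likelihood test). Dpt, the matrix protein dermatopontin, stood at 76.3, 91.1 and 101 CPM against 65.7, 36.6 and 37.1 CPM (-0.95 ± 0.37). Both separated without overlap. Adipocyte and cartilage genes stood lower in the same libraries, and their part in the fibroblast difference was not tested.

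Glutamatergic synapse genes, the theme of the study's title, mostly had small negative fold changes: 30 of 38 tested, with a median of -0.23 (-0.354 without JHHCGC_48). None reached an unadjusted p under 0.05, and 5 of 45 in the table lay lower without overlap (7.14% of all genes tested). The theme was the study's own choice, so its direction here carries no independent weight. The kainate receptor subunit Grik4 stood at 1.53, 1.70 and 1.15 CPM in saline and at 0.797, 0.936 and 0.530 CPM in tea (-0.95 ± 0.43). The NMDA receptor subunit Grin1 overlapped, at 3.40, 2.52 and 4.66 CPM against 2.18, 3.47 and 4.76 CPM, and Grin2a and Grm5 had at most 0.0588 CPM in the 6 libraries.

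Neighbouring lists stood alike, with medians of -0.22 for enteric neurons (-0.077 without NCC_17, 0.035 with the mitochondrial share as a covariate) and -0.47 for enteric glia (-0.175 without NCC_17). Among 20 tested receptors and enzymes of GABA, serotonin, adenosine, melatonin and orexin signalling, 16 were negative with a median of -0.64 (-0.406 without NCC_8, -0.371 without JHHCGC_48). Adora1, the adenosine A1 receptor, stood at 8.50, 5.89 and 8.47 CPM against 2.76, 2.68 and 6.40 CPM. Tph2, the neuronal enzyme of serotonin synthesis, was at 0.794, 0.856 and 1.57 CPM in saline and at 0, 0 and 0.421 CPM in tea.

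**Figure D5:**
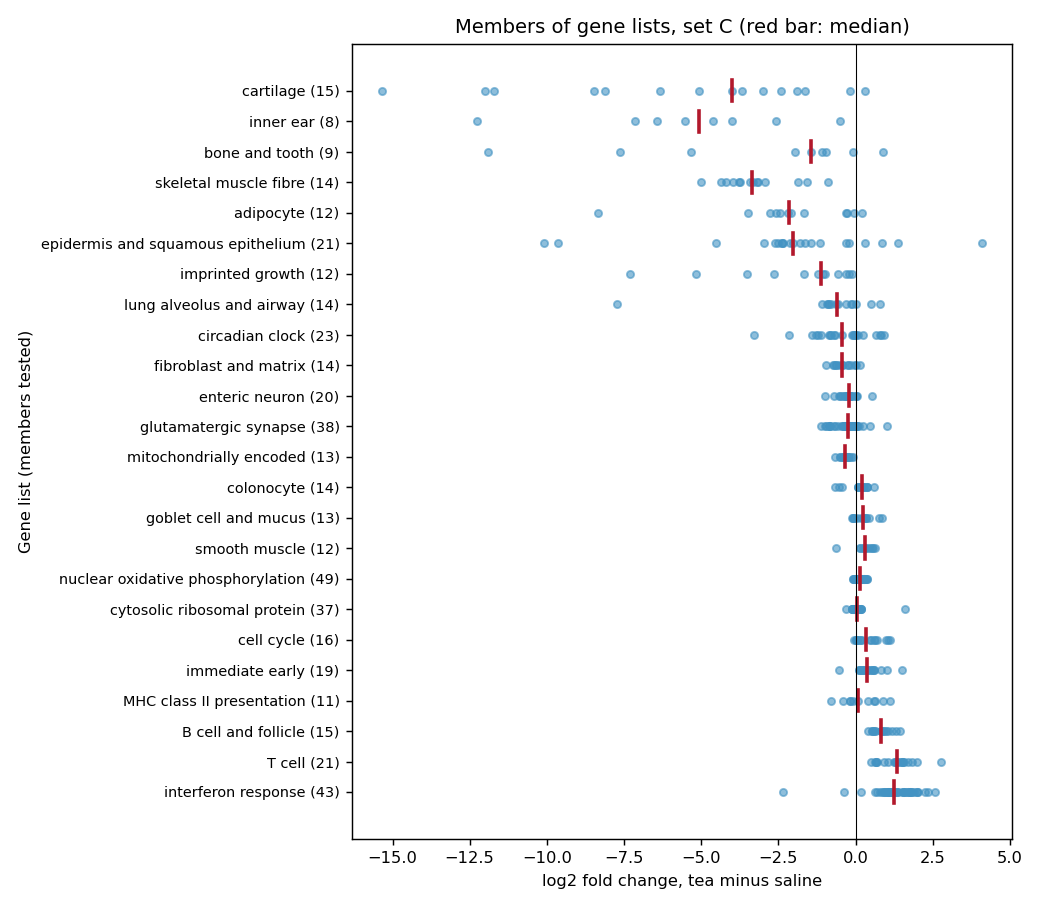
Log2 fold change of tea over saline for each tested member of 24 gene lists (points; the number tested in brackets) with the list's median (red bar). Lists of cartilage, inner ear, muscle, fat and skin reach far below 0, colon epithelium and ribosomal genes lie close to 0, and T cell and interferon lists lie above it.

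The tea effect of this set was set against that of the other set (X), which has 3 tea and 3 saline libraries of its own. The difference of the effects, tested as an interaction over all 18 libraries, was past the threshold for 0 of 22380 genes by edgeR's quasi-likelihood test with Benjamini-Hochberg adjustment (0%), with 1346 at an unadjusted p under 0.05 (6.01%); DESeq2 called 118. For the clock genes the values side by side were -3.30 and -1.1974 for Dbp, -1.29 and -1.11 for Per3, -1.14 and -1.54 for Nr1d2, and 0.92 and 0.53 for Arntl, in set C and set X. Clock itself had -0.09 in set C and -0.80 in set X (unadjusted p of the difference = 0.0257). Abat, which breaks down GABA, had -0.44 in set C and 1.1997 in set X (unadjusted p of the difference = 0.000195 in edgeR's quasi-likelihood test).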

How the data were processed

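Per the labels' protocols, messenger RNA was drawn from total RNA on oligo(dT) beads. HISAT2 2.0.4, cutadapt 1.9, edgeR and StringTie 1.3.4d appear in the submitters' processing notes, whose roles, like strand use and the handling of reads shared between gene copies, are not given in the sources used here. Per the file headers, the authors deposited 1 table of 33977 genes with a raw count and an FPKM value per library. The deposited counts were whole numbers and not normalized; the authors' FPKM values were used only in an alternative test. The labels list a human build, but 33866 of the 33977 identifiers are in the mouse GENCODE M21 annotation of GRCm38 and 87.64% have identical coordinates there, so positions are those of the table on GRCm38.

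The 9 libraries of set C (3 per treatment) were fitted with edgeR 4.0.16 in R 4.3.3: scaling by TMM, removal of low genes by filterByExpr at a minimum count of 10 (20964 genes left) and the quasi-likelihood test of tea minus saline with Benjamini-Hochberg adjustment at 0.05 (6 residual degrees of freedom, biological coefficient of variation 0.556). The capsule libraries entered for the spread, so scaling and filter were also set on all 9. On the 6 tea and saline libraries alone, 20096 genes were left. The error printed beside a log2 fold change is its standard error, the absolute change over the square root of F. Where a group had no count, its level was set at 3 counts per library (0.046 CPM in tea), a bound for counting error only. The difference of tea effects between sets was fitted over 18 libraries. Alternatives were RLE scaling, scaling without mitochondrial genes, no filter, DESeq2 1.42.0, limma 3.58.1 on log2(FPKM + 0.1) or log2(FPKM + 1), limma-voom, other sets of libraries, the log2 mitochondrial share as a covariate, and leaving out single libraries.

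On simulated counts for 20213 genes of this comparison, 0 of 100 genes changed 2-fold and 11 of 100 changed 4-fold were recovered, with 0 false calls. Depth was 59206980 to 68405670 counts per library.

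The libraries, the 61 gene lists and the genes named were chosen with earlier results of these data known, so lists are described by counts and medians without a test. Named were the 10 genes with the smallest p in each direction whose symbol is no clone or predicted name, the 3 members with the smallest p in the main direction of each list described, and fixed markers of tissue and clock. Other members of the lists, Hpx, Panx3, Pou3f4, Tbx18, Hoxc8, Prrx1, Zic1, Gm49394, the Y-linked genes and Xist were chosen after their values were seen. A few genes of the lists are not reported here.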

Additional observations from a re-analysis of the deposited data

Results flagged for a closer look

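Gbp4, an interferon-induced GTPase, had opposite differences in the 2 sets. It was picked from the genes named because its groups separated in opposite directions, so its p-values are no independent check. In set C its tea libraries stood at 7.86, 19.03 and 7.005 CPM, all above the saline libraries at 6.59, 5.25 and 3.75 CPM. In set X its tea libraries stood at 4.59, 5.89 and 4.57 CPM, all below the saline libraries at 6.12, 16.4 and 6.51 CPM. These levels were scaled over all 18 libraries. The tea effect in set C minus that in set X was 2.07 on the log2 scale (unadjusted p = 0.0169; edgeR's quasi-likelihood test, Benjamini-Hochberg adjusted p = 0.729).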

How the results depend on the processing

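The count of 0 genes called by edgeR became 159 with DESeq2, 108 and 146 with limma on log2(FPKM + 0.1) and log2(FPKM + 1), 43 with limma-voom, 13 on the 6 tea and saline libraries alone and 13 with the mitochondrial share as a covariate. It was 0 with RLE scaling, scaling without mitochondrial genes, no filter, all 18 libraries, or without NCC_17, FFZRC_24 and JHHCGC_48 together. Leaving out single libraries gave 0 to 11 genes: removing FFZRC_24 gave 11, FFZRC_5 gave 4, FFZRC_12 gave 2, and JHHCGC_7 or JHHCGC_48 gave 1 each. Hp was called in 9 of these settings and Col11a2 and Npr3 in 8 each. The difference of tea effects between the sets gave 118 genes with DESeq2 and 0 to 1 when single libraries were left out (1 without JHHCGC_19). Genes without overlap numbered 872 to 2933 higher and 1498 to 3386 lower when single libraries were left out, and 3849 and 4408 without the 3 libraries together, as fewer libraries separate more often by construction. Fold changes that reversed were those of Clock (0.038 without NCC_2, range -0.16 to 0.038 with single libraries left out), Cry1 (-0.007 without JHHCGC_48, range -0.007 to 1.354), Cry2 (0.053 with the covariate, 0.115 without NCC_17, 0.116 without JHHCGC_7 and 0.179 without JHHCGC_19, range -0.45 to 0.179) and Ccr7 (-0.255 without JHHCGC_19, range -0.255 to 1.977); the cause was not tested. The median over all genes moved by less than 0.1 under every setting, from -0.075 to 0.03. No paired analysis was possible because the tea and saline libraries share no replicate numbers. With 3 libraries a group and this spread, 2-fold changes were not recovered in simulation, so a gene that was not called is not shown to be unchanged.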

Other observations

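Transcripts of the Y chromosome differed between the groups in libraries that all carried Xist, the RNA of the inactive X chromosome. Xist stood at 361, 455 and 394 CPM in saline and at 357, 349 and 448 CPM in tea, with overlapping groups. Ddx3y, a Y-linked helicase, stood at 3.84, 3.59 and 3.66 CPM in saline and at 0.638, 0.389 and 1.12 CPM in tea. Eif2s3y, Kdm5d and Uty, all Y-linked, were ordered alike: Eif2s3y stood at 3.69, 3.75 and 4.37 CPM against 0.665, 1.15 and 2.01 CPM. For these 4 genes every tea library lay below every saline library, and JHHCGC_48 was the highest of the tea libraries. The capsule libraries of the set held 0.218, 0.395 and 0.742 CPM of Ddx3y beside 465, 409 and 292 CPM of Xist. In the other set, too, these 4 Y-linked genes had negative log2 fold changes of tea over saline. They were -1.48 for Ddx3y, -1.07 for Eif2s3y, -0.48 for Kdm5d and -1.56 for Uty. None of the labels states the sex of the mice.

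Among genes in none of the lists, picked after their values were seen, Hoxc8 stood at 1.44, 1.63 and 2.33 CPM in saline and at 0, 0.115 and 0.0732 CPM in tea. Prrx1, a homeobox factor of limb and skull mesenchyme, stood at 4.79, 5.31 and 5.90 CPM against 0.239, 0.677 and 0.165 CPM, and Zic1 at 0.647, 0.727 and 0.601 CPM against 0 in all tea libraries, at least 14-fold lower. The 8 genes of the colon region list had a median log2 fold change of -0.05, and one of them, Hoxd13, of the hindgut, stood at 204, 184 and 14.2 CPM in saline and 174, 130 and 6.02 CPM in tea, lowest in NCC_17 and JHHCGC_48.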
